A study of Arabidopsis thaliana with 12 samples.

Results

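Plants reduce regulatory disulfides of chloroplast enzymes through thioredoxins, small proteins that need a reductase to recharge them. In the light, photosystem I passes electrons to ferredoxin, and ferredoxin-thioredoxin reductase hands them on to thioredoxins through the iron-sulfur centre of its catalytic subunit. A separate enzyme, NTRC, carries an NADPH-dependent thioredoxin reductase and a thioredoxin in a single protein and works from NADPH, so that it can also act in the dark. Among the enzymes switched on by reduction are phosphoribulokinase (PRK), which makes the CO2 acceptor ribulose bisphosphate, and sedoheptulose bisphosphatase (SBPASE), which commits carbon to the regeneration of that acceptor in the Calvin cycle. The account below sets the transcripts of both reductases, the ferredoxin-thioredoxin reductase catalytic subunit (AT2G04700) and NTRC (AT2G41680), beside those of both enzymes, PRK (AT1G32060) and SBPASE (AT3G55800). Reduction acts on the proteins, which were not measured here.

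The study compared the Arabidopsis thaliana stn7stn8 double mutant, which lacks the thylakoid protein kinases STN7 and STN8, with wild type (WT) of ecotype Columbia 0, using total RNA on 12 arrays with 1 value per spot. There were 6 arrays of each genotype by their titles, but all 12 carry wild type as their source in the labels, so the genotypes rest on the titles. Mutant replicates 4 and 5 held the same values to within 4e-10 and were counted once, which left 5 distinct stn7stn8 arrays and 6 WT arrays. The labels give no organ, age, growth light or mutant alleles, and they do not say whether replicates came from separate plants, so the p-values refer to the spread among these particular arrays, part or all of which may be technical.

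The genes were taken by annotation, with earlier results of these data known. Each of the 4 was named, with no second gene, on 1 row of the array, out of 692 rows that name exactly 1 gene and 3439 rows in all. All 4 rows had a signal above 0 in every array and so passed the filter, which asked for measured values and set no limit on brightness. The row for AT2G04700 lay at the 70.9 percentile of mean brightness among the 3229 tested rows. The NTRC row lay at the 52.2 percentile, PRK at 84.8 and SBPASE at 75.0. Brightness depends on the spotted probe as well as on the transcript, so these positions place the rows on the array and are not an order of transcript levels.

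The arrays of the genotypes differed in the distribution of their intensities before any gene was compared. The median deposited log2 intensity was -0.96 ± 0.024 in stn7stn8 (SD, n = 5) and -1.50 ± 0.13 in WT (n = 6), although the summed intensity was 3616 ± 29.5 in stn7stn8 and 3643 ± 25.5 in WT. The values below are therefore quantile-normalized log2 intensities unless stated, so that a fold change means a shift within the distribution of the whole array. This normalization gives every array the same distribution, and so also removes that difference between the genotypes. WT arrays with consecutive numbers resembled each other. Their deviations from the WT mean correlated across rows with r = 0.34 for replicates 1 and 2, 0.29 for 3 and 4 and 0.52 for 5 and 6, while no other pair of WT arrays exceeded 0.12. These r describe the arrays over rows, which are not independent, and the cause of the pairing is not given in the labels. No transcript marker of seed, flower or root among 10 genes looked for had a row of its own, so the tissue makeup of the samples could not be checked.

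In stn7stn8, the transcript of the ferredoxin-thioredoxin reductase catalytic subunit fell to 45.8% of the WT level, and that of PRK fell to 69.9%. NTRC and SBPASE did not pass the test, at 96.4% and 112% of the WT level. Thus 1 of 2 reductases and 1 of 2 target enzymes were called lower at an adjusted p under 0.05 (limma, Benjamini-Hochberg over all 3229 rows). Of all tested rows, 43.3% were called in either direction, 19.6% lower and 23.7% higher, so a call by itself was common on this array.

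**Figure D1:**
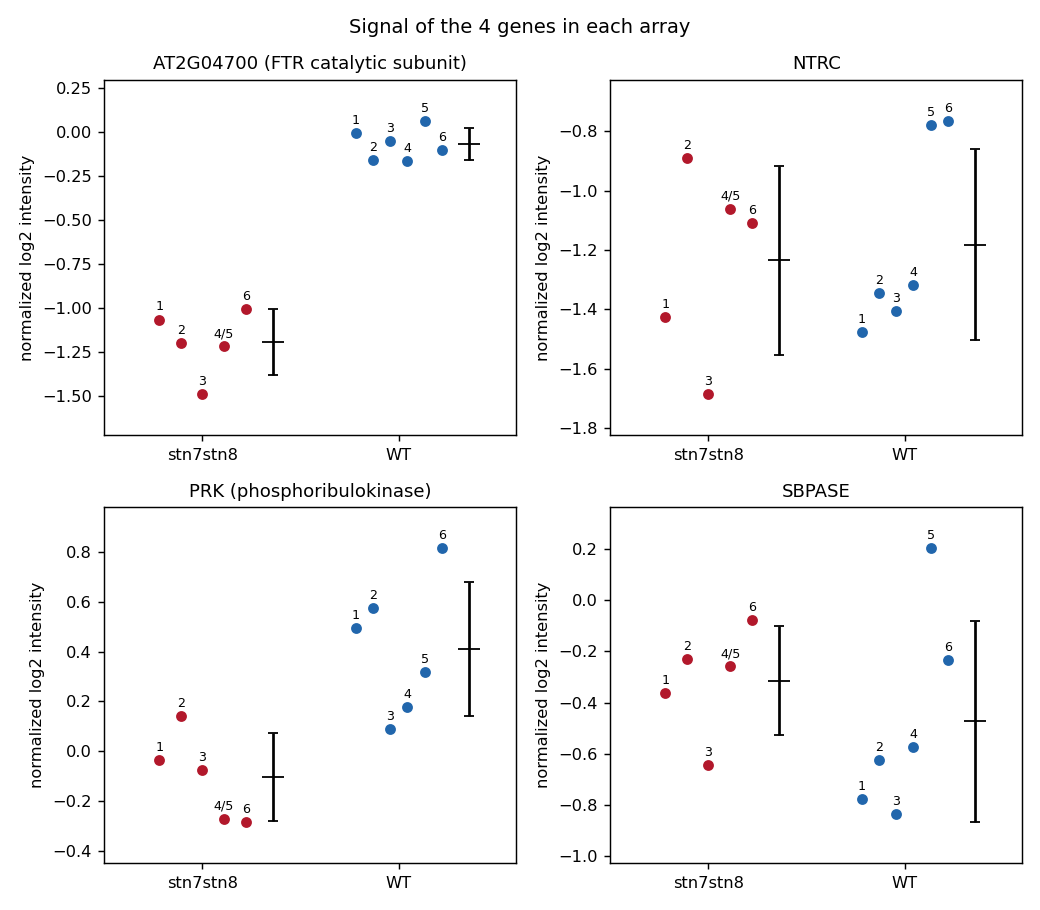
Quantile-normalized log2 intensity (y axes, each panel with its own range) of the 4 genes in the 5 distinct stn7stn8 arrays (red) and the 6 WT arrays (blue), numbered by replicate, with the mean ± SD in black. The groups separate for AT2G04700, overlap in 1 mutant array for PRK and overlap widely for NTRC and SBPASE, where WT replicates 5 and 6 lie above the other WT arrays.

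AT2G04700 had normalized log2 intensities of -1.07, -1.20, -1.49, -1.22 and -1.005 in stn7stn8 replicates 1, 2, 3, 4/5 and 6, against -0.0072, -0.16, -0.049, -0.16, 0.064 and -0.10 in WT replicates 1 to 6. Every mutant array lay below every WT array, with a gap between the highest mutant array at -1.005 and the lowest WT array at -0.16. The log2 fold change was -1.13 ± 0.097 (SE, 95% interval -1.34 to -0.92, adjusted p = 8.7e-06, limma, n = 5 and 6). Ordered by p, the row was 34th of 3229, and its fold change was at the 2.88 percentile of all rows. Among the 645 tested rows with 1 gene name, AT2G04700 ranked 12th from the lowest fold change. Total RNA does not tell less of this transcript per cell from fewer cells that carry it.

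Quantile normalization keeps the order of brightness within an array. The percentile of a row within its array, here and for the genes below, therefore restates its normalized value and is no second test. The AT2G04700 row lay between the 42.4 and 58.0 percentile of the stn7stn8 arrays and between the 79.3 and 82.9 percentile of the WT arrays. The deposited intensity, before the quantile normalization made here, was 0.536 ± 0.0641 in stn7stn8 (SD, n = 5) and 0.878 ± 0.0541 in WT (n = 6). Without overlap between groups, AT2G04700 was 1 of 4 genes, where 28.9% of all tested rows did not overlap. Set against each WT pair alone, the mutant mean was lower by about the same amount, at -1.11 against WT replicates 1 and 2, -1.09 against 3 and 4 and -1.18 against 5 and 6. All 5 mutant arrays lay below each of these pair means.

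NTRC, the NADPH-driven reductase, varied more within the genotypes than between them. Its normalized log2 intensities were -1.43, -0.89, -1.69, -1.06 and -1.11 in stn7stn8 replicates 1, 2, 3, 4/5 and 6, against -1.48, -1.35, -1.40, -1.32, -0.78 and -0.76 in WT replicates 1 to 6. The mutant arrays overlapped the WT range, and replicate 3 lay below it. The log2 fold change was -0.053 ± 0.18 (SE, adjusted p = 0.837, limma, n = 5 and 6), with a 95% interval of -0.45 to 0.34, which spans 73.3% to 127% of the WT level. A change within that interval was not detectable with these arrays.

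The WT arrays of NTRC fell into a lower set, replicates 1 to 4 between -1.48 and -1.32, and a higher one, replicates 5 and 6. The mutant mean was higher than WT replicates 1 and 2 by 0.18 and than 3 and 4 by 0.13, and lower than WT replicates 5 and 6, at -0.46. All 5 mutant arrays lay below the mean of WT replicates 5 and 6, and 2 of 5 lay below each of the other pair means. The percentile of the NTRC row within its array was 50.7 ± 10.1 in stn7stn8 (SD, n = 5) and 52.2 ± 9.96 in WT (n = 6). The deposited intensity was 0.529 ± 0.0994 in stn7stn8 and 0.381 ± 0.0710 in WT. On those deposited values NTRC was called higher, by 0.47 (log2, adjusted p = 0.0210, limma), as were 56.2% of all tested rows. The median log2 fold change of all tested rows on the deposited values was 0.50, and relative to it NTRC was at -0.030.

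PRK, the kinase that forms ribulose bisphosphate, had normalized log2 intensities of -0.034, 0.14, -0.076, -0.27 and -0.28 in stn7stn8 replicates 1, 2, 3, 4/5 and 6, against 0.50, 0.58, 0.091, 0.18, 0.32 and 0.81 in WT replicates 1 to 6. All 5 mutant arrays lay below the WT mean, and 4 of 5 lay below every WT array. The exception was mutant replicate 2 at 0.14, above WT replicate 3 at 0.091. The log2 fold change was -0.52 ± 0.14 (SE, 95% interval -0.82 to -0.21, adjusted p = 0.0101, limma, n = 5 and 6), at the 16.2 percentile of all rows.

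The size of the PRK difference depended on the WT arrays it was set against. The mutant mean was lower by a similar amount than WT replicates 1 and 2 (-0.64) and WT replicates 5 and 6 (-0.67), and the difference from WT replicates 3 and 4 was -0.24. Within the arrays the PRK row lay between the 76.9 and 84.0 percentile in stn7stn8 and between the 83.3 and 90.9 percentile in WT. The deposited intensity was 1.04 ± 0.0998 in stn7stn8 (SD, n = 5) and 1.29 ± 0.239 in WT (n = 6). The PRK call was lost on the deposited values, where PRK stood at -0.30 (log2, adjusted p = 0.0607, limma) and 8.7% of all rows were called lower. After centring each array on its median, PRK was at -0.84 (adjusted p = 0.00143, limma) and 26.6% of all rows were called lower. Averaging neighbouring arrays in both genotypes also ended the call, at -0.51 (adjusted p = 0.0682, limma). Over all 28 alternatives the adjusted p of PRK ranged from 0.00143 to 0.0682.

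SBPASE, the bisphosphatase of the regeneration phase, had normalized log2 intensities of -0.36, -0.23, -0.64, -0.26 and -0.077 in stn7stn8 replicates 1, 2, 3, 4/5 and 6, against -0.78, -0.62, -0.84, -0.57, 0.20 and -0.23 in WT replicates 1 to 6. The mutant arrays lay inside the WT range, and 4 of 5 were above the WT mean. The log2 fold change was 0.16 ± 0.18 (SE, 95% interval -0.24 to 0.56, adjusted p = 0.510, limma, n = 5 and 6), which spans 84.6% to 147% of the WT level.

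As for NTRC, WT replicates 5 and 6 held the highest SBPASE values among WT. The mutant mean was higher than WT replicates 1 and 2 by 0.39 and than 3 and 4 by 0.39, with 0 of 5 mutant arrays below either pair mean. Against WT replicates 5 and 6 the difference was -0.30, and all 5 mutant arrays lay below that pair mean. Without those 2 WT arrays SBPASE was called higher at 0.37 (adjusted p = 0.0259, limma), and leaving out WT replicate 5 alone gave 0.29 (adjusted p = 0.114, limma). The adjusted p over all alternatives ranged from 0.0259 to 0.889. The deposited intensity was 0.920 ± 0.121 in stn7stn8 (SD, n = 5) and 0.668 ± 0.197 in WT (n = 6). SBPASE was called higher on those values, by 0.50 (log2, adjusted p = 0.0282, limma), and relative to the median of all rows it was -0.0072.

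**Figure D2:**
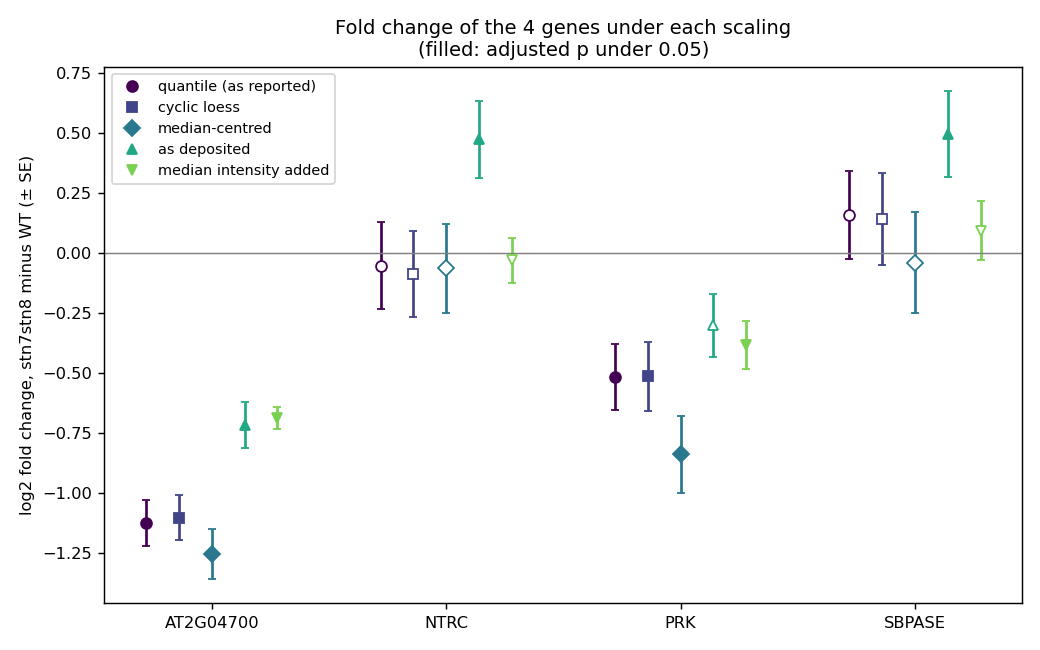
Log2 fold change, stn7stn8 minus WT, ± SE (y axis) of the 4 genes (x axis) under 5 treatments of the intensities, where filled symbols have an adjusted p under 0.05. AT2G04700 is below 0 and passes under each, PRK passes under 4 of 5, and NTRC and SBPASE pass only on the deposited values, where the median of all rows is at 0.50.

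Among all tested rows, the fold changes of the 4 genes spread from the lower tail to the centre of the distribution. AT2G04700 exceeded 95.6% of all rows in the absolute size of its fold change, PRK 68.2%, SBPASE 24.7% and NTRC 8.05%. The median log2 fold change of all tested rows was 0.058 and that of rows with 1 gene name was 0.11. Relative to the median of all rows, AT2G04700 was at -1.18, PRK at -0.57, NTRC at -0.11 and SBPASE at 0.10.

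**Figure D3:**
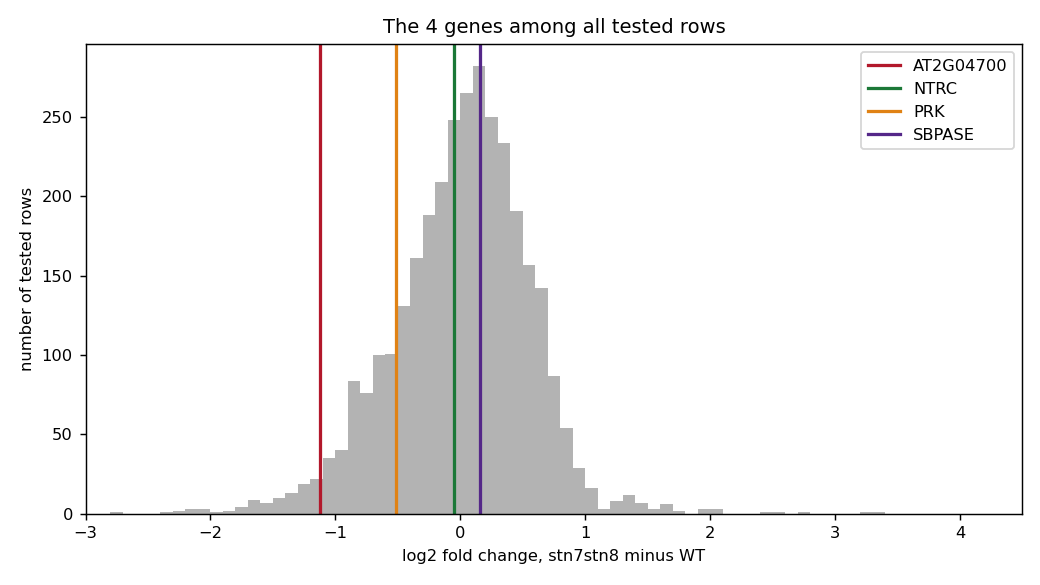
Number of tested rows (y axis) by log2 fold change, stn7stn8 minus WT (x axis, bins of 0.1), over all 3229 rows in grey, with the 4 genes as vertical lines. AT2G04700 lies in the lower tail at -1.13, PRK at -0.52, and NTRC and SBPASE near the centre.

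Whether the 4 transcripts changed by different amounts was tested with the log2 difference between rows within each array. A common scaling factor of an array cancels in this difference. A shift that depends on brightness does not cancel, and here the medians differed between genotypes while the summed intensities were alike. Only the change of the within-array difference between genotypes was read, since its level depends on the probes. Each of the 6 pairs had an exact permutation test, two-sided, over all 462 ways to split 11 arrays into 5 and 6, and Benjamini-Hochberg adjustment was made over the 6 pairs.

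The reductases differed from each other. AT2G04700 minus NTRC was 0.36, -0.31, 0.19, -0.16 and 0.10 on the log2 scale in stn7stn8 replicates 1, 2, 3, 4/5 and 6, against 1.47, 1.18, 1.36, 1.15, 0.84 and 0.66 in WT replicates 1 to 6. All mutant arrays lay below all WT arrays. The difference between genotypes was -1.07, a change in the ratio of both signals to 0.475 of its WT value (exact permutation p = 0.00216, the smallest that 462 splits can give; adjusted p = 0.00649). On the deposited values it was -1.19 (exact permutation, adjusted p = 0.0130). The difference was largely the fall of AT2G04700 itself, at -1.13, since NTRC at -0.053 lay near the median of all rows at 0.058. SBPASE, at 0.16, also lay near that median. How many other rows differ as much from AT2G04700 was not tested, so the contrast is not shown to be particular to these genes.

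AT2G04700 also changed by a different amount from SBPASE. Their within-array difference lay between -0.97 and -0.70 in stn7stn8 and between -0.14 and 0.79 in WT, without overlap. The difference between genotypes was -1.29 (exact permutation p = 0.00216; adjusted p = 0.00649). Against PRK the difference was smaller, at -0.61 (exact permutation p = 0.0108; adjusted p = 0.0216), and the ranges overlapped, from -1.42 to -0.72 in stn7stn8 and from -0.92 to -0.14 in WT. On the deposited values the AT2G04700 and PRK changes differed by -0.41 and the call was lost (exact permutation, adjusted p = 0.0623).

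The Calvin cycle enzymes changed unequally in the main comparison, though less firmly. PRK minus SBPASE was 0.33, 0.37, 0.57, -0.012 and -0.21 in stn7stn8 replicates 1, 2, 3, 4/5 and 6, against 1.27, 1.20, 0.93, 0.75, 0.12 and 1.05 in WT replicates 1 to 6. WT replicate 5, at 0.12, lay within the mutant range, while the other WT arrays lay above it. The difference between genotypes was -0.68 (exact permutation p = 0.0238; adjusted p = 0.0357). That call was lost when any of 7 of the 11 arrays was left out, with values between -0.71 and -0.58 (exact permutation, adjusted p from 0.05 to 0.0714). These were WT replicates 1, 2, 3 and 6 and mutant replicates 1, 4/5 and 6.

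The remaining pairs set NTRC beside the enzymes. NTRC and PRK differed by 0.46 (exact permutation p = 0.0498; adjusted p = 0.0597), which did not pass after adjustment. On the deposited values the same pair differed by 0.78 and passed (exact permutation, adjusted p = 0.0130). It also passed without WT replicate 5 (0.55, adjusted p = 0.0397, exact permutation) and without mutant replicate 3 (0.59, adjusted p = 0.0343, exact permutation). NTRC and SBPASE differed by -0.21 (exact permutation p = 0.0671, adjusted p = 0.0671), and by -0.023 on the deposited values. That pair passed without WT replicate 5 (-0.26, adjusted p = 0.0397, exact permutation) and without mutant replicate 2 (-0.28, adjusted p = 0.0400, exact permutation).

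**Figure D4:**
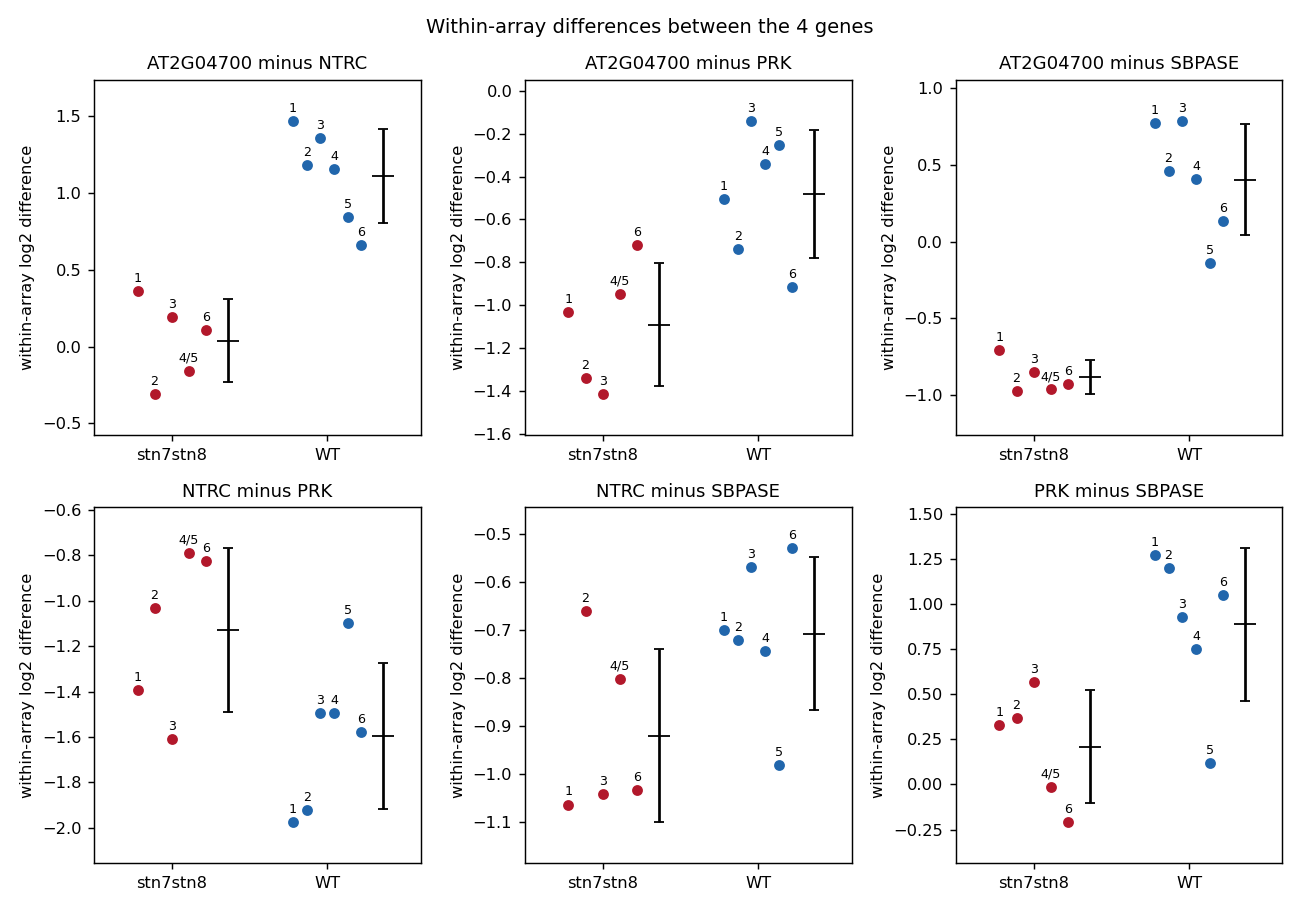
Within-array log2 difference (y axes, each panel with its own range) for the 6 pairs of genes in the 5 distinct stn7stn8 arrays (red) and the 6 WT arrays (blue), numbered by replicate, with the mean ± SD in black. The genotypes do not overlap for AT2G04700 minus NTRC and AT2G04700 minus SBPASE, and overlap in the other 4 panels.

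With consecutive WT arrays averaged, which leaves 3 WT units against 5 mutant arrays, these tests could not give a p below 0.0179. AT2G04700 against NTRC and against SBPASE both reached that value, and after adjustment over the 6 pairs no pair passed (smallest adjusted p = 0.0536, exact permutation). The fitted fold changes of AT2G04700 and PRK passed in that design (adjusted p = 8.1e-04 and 0.0309, limma).

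The profile of NTRC over the arrays was more like that of SBPASE than like that of the other reductase. Likeness was measured as the root-mean-square difference between normalized log2 profiles over 11 arrays, each centred on its own mean, so that a smaller value is closer. NTRC and SBPASE were 0.186 apart, the closest of the 6 pairs. AT2G04700 and SBPASE were the farthest apart, at 0.688. Of 623 other rows with 1 gene name and a value in every array, 8 lay nearer to NTRC than SBPASE did, and 6 lay nearer to SBPASE than NTRC did. PRK lay 0.403 from AT2G04700, and 66 of the 623 rows were nearer to AT2G04700. These distances are a description, and arrays share their processing across rows. Each profile includes the difference between genotypes, so rows close to a gene were chosen in part for a similar fold change. The fold changes and p-values of the nearest rows, given below, are therefore no separate test.

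The rows most like AT2G04700 were AT2G46630, AT3G26580 and AT4G00170, at distances of 0.179, 0.188 and 0.213, where the median distance of the 623 rows was 0.679. AT2G46630 averaged -0.98 in stn7stn8 and 0.15 in WT, a log2 fold change of -1.12. AT3G26580 changed by -1.23 and AT4G00170 by -1.10, and this likeness in fold change follows in part from the choice of rows. The rows nearest to PRK were AT1G51550, the sucrose-phosphate synthase gene ATSPS4F and AT2G48130, at 0.143, 0.147 and 0.168. Their log2 fold changes were -0.38, -0.53 and -0.40 (adjusted p = 0.00833, 0.00247 and 0.0478, limma). Closeness to PRK already favours a similar fold change, so these p-values do not test the likeness separately.

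The rows nearest to NTRC were AT5G50350, AT5G06790 and PPDK, the pyruvate orthophosphate dikinase, at 0.142, 0.144 and 0.154. Their log2 fold changes of 0.11, 0.019 and -0.27 did not pass (adjusted p = 0.670, 0.929 and 0.116, limma). SBPASE was nearest to AT3G21810, AT3G57440 and AT5G50350, at 0.154, 0.157 and 0.175, so AT5G50350 was among the 3 closest rows of both NTRC and SBPASE. The log2 fold changes of AT3G21810 and AT3G57440 were 0.23 and 0.078 (adjusted p = 0.234 and 0.712, limma). As for PRK, closeness to NTRC or SBPASE favours a similar fold change, so rows that did not pass are no separate result.

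Few other genes of the pathway had a row of their own. The lists held 58 genes of the Calvin cycle, the plastid thioredoxin system, ferredoxin and its reductase, plastid peroxiredoxins and other known thioredoxin targets. Of these, 7 were tested, the 4 genes above among them. Of the 7, 1 was higher, 2 were lower (AT2G04700 and PRK, reported above) and 4 did not pass. Among all tested rows, 23.7% were called higher and 19.6% lower, so the count is near the background. The median log2 fold change of the 7 was -0.053, the value of NTRC itself, beside 0.058 for all tested rows. A further 5 were named only on rows that also name other genes and were not analysed here. In the Calvin cycle, 2 of 24 genes were tested, PRK and SBPASE, and their median was -0.18. In the thioredoxin system, 2 of 16 were tested, AT2G04700 and NTRC, with a median of -0.59. None of the thioredoxins themselves, of the variable subunits of ferredoxin-thioredoxin reductase or of 5 genes of ferredoxin and ferredoxin-NADP reductase was tested.

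Outside the 4 genes, 3 listed genes could be set beside them. CHLM, the magnesium protoporphyrin methyltransferase of chlorophyll synthesis, which thioredoxin activates, averaged -0.34 in stn7stn8 and -0.86 in WT and rose by 0.51 ± 0.093 (SE, adjusted p = 0.00104, limma, n = 5 and 6). All mutant arrays of CHLM lay above all WT arrays, where 28.9% of all tested rows did not overlap and 23.7% were called higher.

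The NADP-dependent malate dehydrogenase (AT5G58330), which light activates through thioredoxin, had normalized log2 intensities of -0.44, -0.63, -0.38, -0.75 and -0.54 in stn7stn8 replicates 1, 2, 3, 4/5 and 6, against -0.71, -0.60, -0.69, -0.76, -0.82 and -0.63 in WT replicates 1 to 6. The groups overlapped, and the log2 fold change of 0.15 ± 0.086 did not pass (SE, adjusted p = 0.170, limma). On the deposited values the malate dehydrogenase was called higher at 0.57 (adjusted p = 2.5e-04, limma), where the median of all rows was 0.50.

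The peroxiredoxin PRXIIE (AT3G52960), a plastid peroxidase, had normalized log2 intensities of 0.28, 0.11, -0.082, -0.45 and -0.11 in stn7stn8 replicates 1, 2, 3, 4/5 and 6, against 0.12, 0.11, 0.062, 0.042, 0.14 and 0.14 in WT replicates 1 to 6. The mutant arrays spread on both sides of the narrow WT range. The log2 fold change of -0.15 ± 0.12 did not pass (SE, adjusted p = 0.311, limma). After each array was centred on its median, PRXIIE was called lower at -0.44 (adjusted p = 0.00741, limma), and on the unscaled values it was at 0.095. Leaving out mutant replicates 1 and 2 together also gave a lower call, at -0.33 (adjusted p = 0.0316, limma), while single mutant arrays moved it between -0.053 without replicate 4/5 and -0.24 without replicate 1, neither of which passed.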

How the data were processed

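The deposited table holds linear intensities, never below 0. For the authors' scaling and the array type, nothing is recorded in the labels or the table header. The 4 rows were found through the platform annotation (1 gene on 692 rows, several on 870, none on 1877). Of the 692, 690 matched RefSeq's TAIR10.1 gene table, used for names only. Zeros were set to missing, intensities were transformed to log2, and arrays were quantile normalized because their medians differed by over 0.1. Rows with 4 or more measured values per genotype were fitted with limma 3.58.1 (lmFit, eBayes, two-sided) in R 4.3.3. Benjamini-Hochberg adjustment was made over 3229 rows, with a threshold of 0.05. The fit was tested on simulated data with independent noise in each row and array. These data held neither the WT pairing nor the difference in distribution between genotypes, so the simulation does not bear on them. The number of arrays limits the precision, and the intensities carry no read depth. Genotypes came from the titles. Pairs of genes were compared by exact permutation tests. Alternatives changed the scaling, filters, variance model, weights and blocks, and left out arrays.

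The text names the 4 genes, every tested member of the pathway lists, and the 3 nearest profiles per gene. Members, lists and alternatives were chosen with earlier results of these data known.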

Additional observations from a re-analysis of the deposited data

Results flagged for a closer look

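Values of the named genes, the within-array differences and the array medians were searched for an array far from the others of its genotype, in 50 groups of values, where chance gives about 1 in 20. AT4G00170, the third nearest profile to AT2G04700, had a normalized log2 intensity of -1.81 in mutant replicate 6, while the other mutant arrays lay between -1.62 and -1.60. None of the 4 genes had such an array in either genotype.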

How the results depend on the processing

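AT2G04700 was lower and passed in all 28 alternatives, at -1.26 to -0.69 on the log2 scale. PRK was lower in all 28 and passed in 26. On the values as deposited, PRK was at -0.30, NTRC at 0.47 (called, in the other direction) and SBPASE at 0.50 (called), beside a median of 0.50 over all rows, and the rows called split into 1814 higher and 281 lower, against 766 and 632 as reported. With arrays centred on their medians the split was 631 and 860. On the deposited values AT2G04700 against PRK was at -0.41 (not called) and NTRC against PRK at 0.78 (called). Adding the median intensity before taking log2 gave 0.35 for NTRC against PRK, which was called (adjusted p = 0.0390, exact permutation). Averaging consecutive arrays of both genotypes left 773 rows called, against 1398, and PRK at -0.51 (not called). There AT2G04700 against NTRC, PRK and SBPASE gave -1.05, -0.66 and -1.28, and PRK against SBPASE -0.62, none of which could pass, since 20 splits give no p below 0.1. With only WT arrays averaged these were -1.07, -0.61, -1.29 and -0.68, all at an adjusted p of 0.0536 (exact permutation). SBPASE was called at 0.37 without WT replicates 5 and 6. With single arrays left out, the log2 fold changes ranged from -1.19 to -1.07 for AT2G04700, -0.14 to 0.060 for NTRC, -0.59 to -0.43 for PRK and 0.088 to 0.29 for SBPASE, with no call changed. PRK against SBPASE ranged from -0.82 to -0.58, NTRC against PRK from 0.38 to 0.59 and NTRC against SBPASE from -0.28 to -0.17. Where no value shows it, the cause of a change was not tested.

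With the replicate number as a block, SBPASE was called at 0.29 (adjusted p = 0.0269, limma), but with the identical mutant arrays numbered 5 in place of 4, an alternative chosen after seeing the data, it was at 0.14 (adjusted p = 0.467, limma). Calls of the other 3 genes did not change under either block, and 1425 and 1450 rows were called. Same-numbered arrays deviated together (r over 0.1 across rows) for numbers 1, 2, 3 and 6, but the single array that carries numbers 4 and 5 gave 0.0094 and 0.091, so the numbers were not taken to pair the arrays. As a hint from the data only, each of the 5 distinct mutant arrays correlated best with the WT array of its own number, if the identical arrays are number 5.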
